A study of Mus musculus with 68 samples.

Results

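The data compared here are from 24 of 37 tumor-bearing mice, the 12 with the most and the 12 with the least hair differentiation in their papillomas. Mice were ranked by the single Krt71 probeset, a keratin of the inner root sheath of the hair follicle, after the log2 values of papillomas from the same mouse were averaged. The 12 highest mice gave 21 papillomas and the 12 lowest gave 24, so that 45 of the 68 papillomas of the series entered the comparison. The other 13 mice, with 23 papillomas, lay between the groups. All animals were FVBBX mice, made by crossing SPRET/Ei with FVB/N and the offspring back to FVB/N, so that each mouse carried its own mix of Mus spretus and FVB/N alleles. Every mouse was initiated at 8 to 12 weeks of age with a single dose of the mutagen DMBA on the dorsal skin and promoted there with the phorbol ester TPA, given 2 times a week for 20 weeks, and none of the mice analysed here was untreated. Bulk RNA of each papilloma was measured on 1 Affymetrix mouse genome array, and in such samples fewer cells of a type cannot be told apart from less RNA per cell.

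The hair follicle is built in concentric layers. The inner root sheath is a rigid sleeve that molds the growing hair and is made of its own keratins, hardened by trichohyalin, while the cortex and cuticle of the shaft use another set of keratins packed in a matrix of keratin-associated proteins (Krtap genes). Wnt, Shh and Bmp signals direct this program through factors such as Lef1, Msx2, Foxn1 and Hoxc13. Papillomas are benign outgrowths of the epidermis and its follicles and can keep parts of this program.

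Krt71 fell off gradually from the highest to the lowest mice. Mouse means in the high group had a lowest value of 7.86, a median of 8.75 and a highest value of 10.61 on the log2 scale, and in the low group 5.29, 5.40 and 5.66. At the limits of the groups, mouse 23 (7.86) was the last high mouse and mouse 14 (7.66) the first outside, and mouse 15 (5.66) was the first low mouse while mouse 31 (5.75) was just outside. The low level is close to background: array medians ran from 5.19 to 5.29, although 20 of the 24 low arrays had Krt71 above their own median. Single papillomas of high mice ranged from 6.39 to 11.99 and all 21 lay above those of low mice, which ranged from 5.07 to 5.74. These values chose the groups and were not tested.

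**Figure D1:**
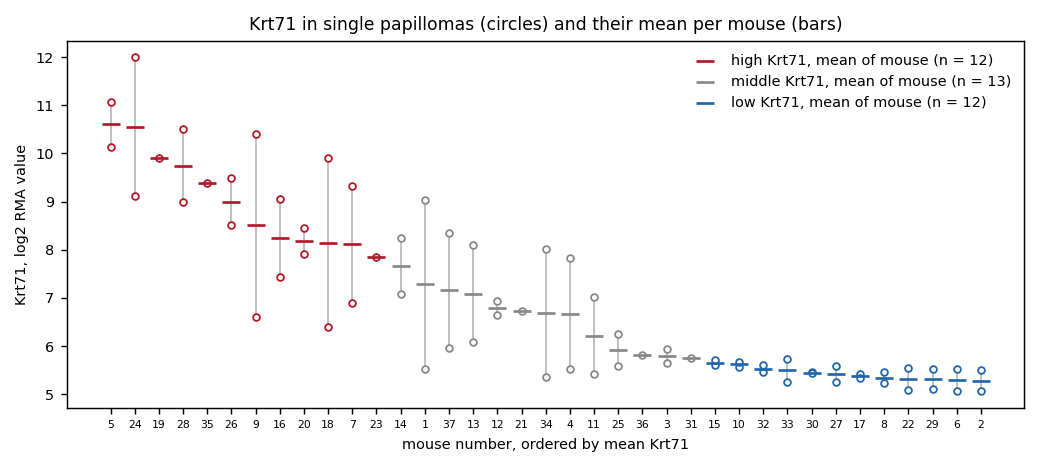
Krt71 (log2 RMA value) in each papilloma, with mice ordered by their mean; circles are single papillomas, bars are means of a mouse and colors mark the 12 high, 13 middle and 12 low mice. High and middle mice often held 1 papilloma with much more Krt71 than the other, while all papillomas of low mice lay between 5.07 and 5.74. Ranking by the mean keeps mice with 1 such papilloma out of the low group.

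The papillomas of a mouse were often unlike. In the 9 high mice with 2 papillomas the absolute difference in Krt71 had a median of 1.63 log2 units and a maximum of 3.79, and in the middle mice a median of 1.81 and a maximum of 3.50. Both papillomas of a low mouse were near background, with a median difference of 0.28. This was built in, since a mouse with 1 papilloma rich in Krt71 had too high a mean for the low group. Mouse 34, for example, had 5.36 and 8.02 and was a middle mouse. Over the 31 mice with 2 papillomas, 13 pairs differed by more than 1 log2 unit and 9 by more than 2. The difference between the papillomas of a mouse, which the ranking did not use, served as a second measure in what follows: the difference of each gene was regressed on that of Krt71 over the 31 mice (limma, slope in log2 units per log2 unit of Krt71), so that host, sex and cohort cancel.

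Promoter sequence upstream of the transcription start is shown for Krt71, which set the ranking, and for 3 genes that rose with it, the 250 bases before the start in GRCm38.p6 (RefSeq), 5′ to 3′ on the strand of the gene. Capitals mark TATAAA on either strand, the core of the TATA box.
Krt71, chr15:101743098-101743347, minus strand: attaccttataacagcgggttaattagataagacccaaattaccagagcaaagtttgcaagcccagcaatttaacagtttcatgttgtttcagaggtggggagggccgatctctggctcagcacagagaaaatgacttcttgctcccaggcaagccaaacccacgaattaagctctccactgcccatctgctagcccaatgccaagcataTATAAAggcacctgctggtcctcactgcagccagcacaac
Gm11559, chr11:99864226-99864475, plus strand: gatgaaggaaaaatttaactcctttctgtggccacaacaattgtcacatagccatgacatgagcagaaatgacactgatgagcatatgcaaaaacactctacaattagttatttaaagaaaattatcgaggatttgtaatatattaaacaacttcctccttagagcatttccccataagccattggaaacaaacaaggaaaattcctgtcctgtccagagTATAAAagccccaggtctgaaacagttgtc
Gprc5d, chr6:135118284-135118533, minus strand: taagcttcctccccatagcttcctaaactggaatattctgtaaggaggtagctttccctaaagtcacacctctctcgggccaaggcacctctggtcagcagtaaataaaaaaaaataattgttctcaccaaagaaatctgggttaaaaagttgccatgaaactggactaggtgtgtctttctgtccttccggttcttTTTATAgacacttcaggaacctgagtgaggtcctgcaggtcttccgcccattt
Tchh, chr3:93442080-93442329, plus strand: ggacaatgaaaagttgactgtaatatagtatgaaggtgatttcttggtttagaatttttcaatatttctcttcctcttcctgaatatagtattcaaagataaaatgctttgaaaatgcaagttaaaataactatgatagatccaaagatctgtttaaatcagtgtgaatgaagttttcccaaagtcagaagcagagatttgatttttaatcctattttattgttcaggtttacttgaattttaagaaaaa
The match begins 40 bases before the start in Krt71, 30 in Gm11559 and, on the opposite strand, 53 in Gprc5d, and Tchh has none in this window. Of the 25 genes that rose in high mice (below), 20 had a promoter in the table and 8 of these (40%) held TATAAA: Gm10228, Gm10229, Gm11559, Gm11563, Gm11567, Gprc5d, Prr9 and S100a3. Over all 27025 genes the share was 14.3%. The Gm genes among the 8 lie among Krtap genes, and all of them but Gm10229 passed the filter on low values only through the high mice (below). The difference between these shares was not tested. The TCF/LEF core CTTTGA, on either strand, was in 4 of the 20 (20%) and in 15.8% of all genes.

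Keratins of the follicle were high where Krt71 was high, both between mice and within them. Of 89 tested Krt and Krtap probesets 79 were higher in high mice, with a median log2 difference of 1.24, which describes the ranking and was not tested. The 7 inner root sheath keratins differed by 1.43 to 5.47, with Krt25 the most: its mouse means had a lowest value of 4.67, a median of 4.99 and a highest value of 5.59 in low mice and 9.04, 10.51 and 12.41 in high mice. The groups did not overlap. Keratins of the hair shaft and its companion layer, 12 of which were tested, had a median difference of 1.66 and included Krt33a (4.30) and Krt34 (3.45).

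Within mice 49 of the 89 Krt and Krtap probesets followed Krt71 upward and 0 downward at an adjusted p under 0.05 (limma), where 0.219% of the 21472 other tested probesets did so upward and 0.303% downward. All 7 inner root sheath keratins were among them, Krt71 included, whose slope on itself is 1 by construction. Krt25 had a slope of 1.33 (SE 0.065, limma adjusted p = 6.22e-17) and Krt27 one of 1.16 (SE 0.0375, adjusted p = 4.63e-22). Of the shaft and companion keratins 10 of 12 followed. Keratins of other epithelia were not called: Krt13, a keratin of the differentiated layers of moist epithelia, had a slope of -0.05 (adjusted p = 0.949) on its brightest probeset, Krt5, of the basal layer, 0.02 (adjusted p = 0.856), and Krt6a, of stressed epidermis, 0.01 (adjusted p = 0.947). Krt5 and Krt6a had mean levels that only 0.222% and 0.0288% of all probesets exceeded, near the highest values of the arrays (14.59 to 14.81), and whether signals there could still rise was not tested.

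Another comparison chose mice by their first papilloma alone, the 10 highest and 10 lowest in Krt71, and measured the second. Here Krt71 could be tested, and the second papilloma averaged 7.84 ± 1.69 (SD, n = 10) in mice chosen as high and 5.83 ± 0.94 (SD, n = 10) in mice chosen as low, an exact permutation p of 0.0042, or 0.0112 adjusted over the 8 genes examined this way, which were picked after their values were seen. Of the 10 mice chosen as high 4 had a second papilloma above all those of mice chosen as low. Krt25 differed by 3.21 on the log2 scale (exact permutation p = 0.0022, adjusted p = 0.00879), and Gprc5d by 0.71 (exact permutation p = 0.00956, adjusted p = 0.0191). Tchh differed by 1.22 and Hoxc13 by 0.34, and neither passed (exact permutation p = 0.136 and 0.135). Across all probesets limma called 0 higher and 0 lower (0% of 21472 in each direction). At an unadjusted p under 0.05 there were 322 higher and 349 lower.

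Outside the Krt and Krtap genes, 26 probesets of 25 genes were higher in high mice at an adjusted p under 0.05 (0.121% of 21472 tested) and 9 probesets of 9 genes were lower (0.0419%). The groups were drawn on the same arrays through Krt71, so genes of the same program had to differ, and this list is read beside the slopes within mice. The 26 higher probesets differed by 0.33 to 4.43 on the log2 scale. Of these, 8 would have failed the filter on low values without the high mice, having fewer than 11 middle and low arrays above the array median: Crym, Fbp1, Gli1, Gm10228, Gm11559, Gm11563, Gm11567 and Ly6g6d. At an unadjusted p under 0.05, 1011 were higher and 744 lower, and the median difference of all tested probesets was 0.01. In 8 probesets (0.0373% of those tested) all 12 high mice lay above all 12 low mice, and in 0 they lay below. Start cohorts were unevenly spread, with 6 high and 2 low mice in cohort 6. Within all 5 cohorts that held both groups 22 of the 26 were higher in high mice, and the other 4 were so in 4 of them. The 26 were picked for being higher over the same mice, so this is in part built in. Cohorts 1, 3 and 7 held only 1 high mouse each, and the share over all probesets was not computed. With sex and cohort as covariates 13 and 2 probesets passed. Without the 3 mice (2 high, 1 low) whose Xist or Eif2s3y went against the sex label the counts were 18 and 7, without the 3 high mice that gave a single papilloma 15 and 2, and without mouse 26 the higher count was 40.

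Structural proteins of the hair were among the higher genes. Of 18 tested genes listed as hair structure proteins other than keratins 6 rose and 0 fell, with a median difference of 0.54. The list is broader than its name. Besides Tchh, Tchhl1, S100a3 and Prr9 the 6 include Crym, a hormone-binding protein (below). They also include a gene given below among those with other roles. Over all 12522 genes, each by its brightest probeset, 20 rose (0.16%) and 7 fell (0.0559%), with a median of 0.01. With sex and cohort as covariates 4 of the 6 passed, without S100a3 (adjusted p = 0.0632) and Prr9 (adjusted p = 0.118), and 4 passed when mice with a doubtful sex label were left out, again without S100a3 (0.111) and Prr9 (0.0511). Trichohyalin, Tchh, which fills and crosslinks the inner root sheath, had mouse means with a lowest value of 5.30, a median of 7.29 and a highest value of 8.09 in low mice and of 8.62, 9.47 and 11.37 in high mice. The groups did not overlap, and the difference was 2.86 (SE 0.407, limma adjusted p = 0.000132). Its relative Tchhl1 ran from 4.26 through 4.79 to 5.92 in low mice and from 4.71 through 6.67 to 8.74 in high mice, with 11 of 12 high mice above every low mouse. That difference was 1.92 (SE 0.308, limma adjusted p = 0.000737). Both followed Krt71 within mice, with slopes of 1.00 (SE 0.0904) and 0.73 (SE 0.0833).

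Other members of the group were S100a3, a calcium-binding protein of the hair cuticle, with a difference of 1.65 and a slope within mice of 0.52, and Prr9, a proline-rich protein, with 2.04 and 0.65. Crym, a thyroid hormone-binding protein, rose from a median of 3.72 in low mice to 5.83 in high mice and 9 of 12 high mice lay above all low mice (difference 1.97, SE 0.29, limma adjusted p = 0.000199). Members of the list that act on structure proteins rather than being them were not called: Padi3, which converts arginines of trichohyalin to citrulline, differed by 0.33 (limma adjusted p = 0.84), and Tgm3, which crosslinks it, by 0.55 (adjusted p = 0.81). Mt4, a metallothionein of stratified epithelia, differed by 2.19 but ranged from 4.62 to 11.23 in low mice and did not pass (adjusted p = 0.286).

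Of the 6 largest differences past the threshold 5 belonged to genes that carry only systematic names. Gm10228 and Gm10229 on chromosome 16 and Gm11559, Gm11563 and Gm11567 on chromosome 11 lie among Krtap genes, which make up at least 5 of the 10 nearest protein-coding neighbors of each, and the name filter on Krt and Krtap did not remove them. Gm10229 ran from 4.40 through 4.68 to 6.01 in low mice and from 6.45 through 9.28 to 11.33 in high mice. Without an overlap of the groups, its difference was 4.43 (SE 0.434, limma adjusted p = 4.58e-07), with 5 of 24 low arrays above their own median, so that the low level lay near background and the size of the difference is uncertain. Gm11559 lay near background in low mice, between 3.06 and 3.42, and between 4.88 and 9.68 in high mice. Their slopes within mice were 1.12 and 1.29. Among the 13 mice between the groups, which the contrast did not use, Gm11559 and Gm10228 were the only non-keratin probesets called for a slope on Krt71 (limma adjusted p = 0.000233 and 0.0335, 0.00931% of those tested), beside 25 Krt and Krtap probesets.

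**Figure D2:**
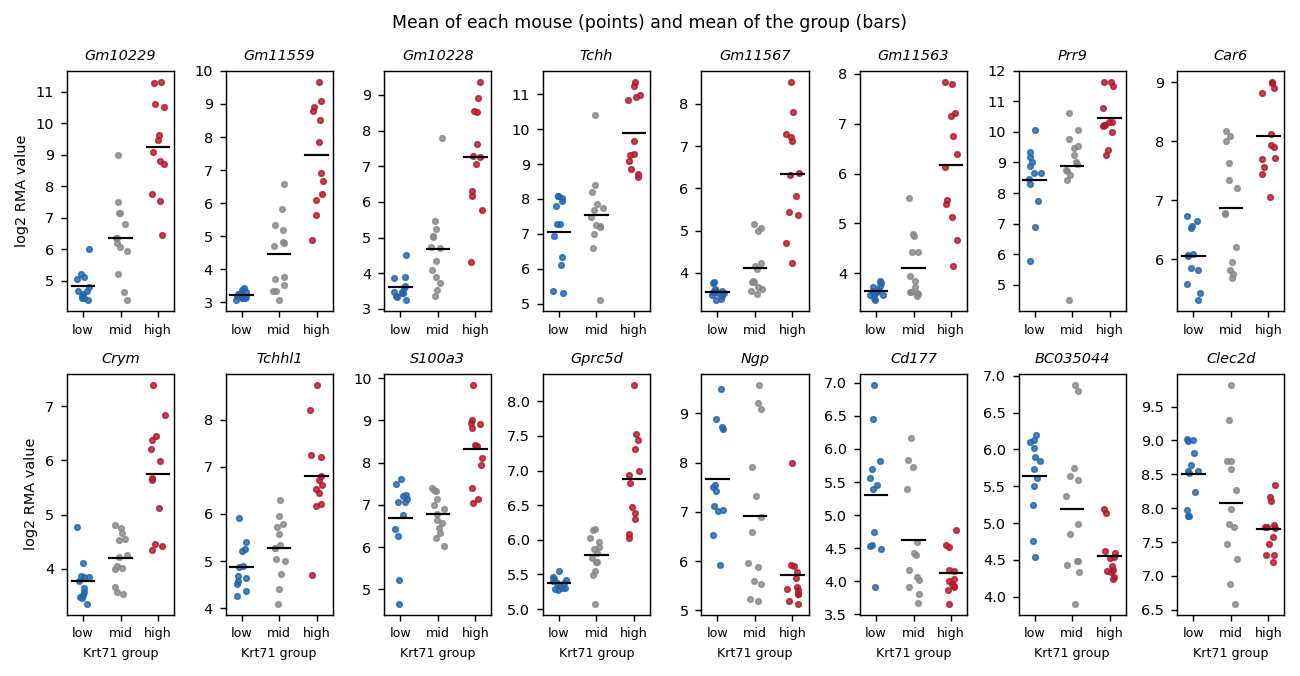
Log2 RMA values of the 12 genes with the largest increase and the 4 with the largest decrease among those that passed the threshold, with 1 point per mouse and a bar at each group mean. Tchh, Car6 and Gprc5d separate high from low mice without overlap, means of middle mice lie in between, and 1 high mouse, at 8.00, stands above the other high mice in Ngp.

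Of the genes with other roles, Gprc5d, an orphan G protein-coupled receptor of hair-forming cells, ran from 5.28 through 5.38 to 5.55 in low mice and from 6.03 through 6.87 to 8.24 in high mice. All 12 high mice lay above all 12 low mice, and it was higher in each of 5 cohorts (difference 1.5, SE 0.185, limma adjusted p = 1.54e-05). Car6, a secreted carbonic anhydrase, ran from 5.31 through 6.07 to 6.73 in low mice and from 7.05 through 7.92 to 9.01 in high mice. Again the groups did not overlap (difference 2.04, SE 0.227, limma adjusted p = 3.47e-06). Fbp1, an enzyme of gluconeogenesis, differed by 1.44, and Ly6g6d, a membrane-anchored Ly6 protein, by 1.21, and in low mice 1 and 0 of 24 arrays had them above the array median. Slc40a1, the exporter of cellular iron, rose on both of its probesets by 0.71 and 0.73, but neither passed with sex and cohort as covariates (adjusted p = 0.13 and 0.264), with mouse as a random block (0.0861 and 0.0798) or when mice with a doubtful sex label were left out (0.0961 and 0.131). All of these followed Krt71 within mice, Gprc5d with a slope of 0.46 (SE 0.0486, adjusted p = 3.2e-08) and Car6 with 0.40 (SE 0.0737, adjusted p = 0.00181).

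Among 18 tested follicle transcription factors 1 rose and 0 fell, with a median difference of 0.11. This was Hoxc13, a homeobox factor that drives hair keratin genes, with 5.17, 5.38 and 6.16 as lowest, median and highest mouse means in low mice and 5.43, 6.40 and 6.94 in high mice. It was above all low mice in 7 of 12 high mice (difference 0.79, SE 0.163, limma adjusted p = 0.0191), with a slope within mice of 0.29 (SE 0.0495, adjusted p = 0.000461). The call between mice was lost with sex and cohort as covariates (adjusted p = 0.233) and with mouse as a random block (adjusted p = 0.0761). Msx2 differed by 0.58 (adjusted p = 0.112) with a slope of 0.20 (adjusted p = 0.054). Foxn1, required for a visible coat, differed by 0.29 (adjusted p = 0.81), Lef1, the Wnt-responsive factor of the hair matrix, by 0.05 (adjusted p = 0.86), and Gata3, a factor of the inner root sheath, by 0.15 (adjusted p = 0.92).

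Signaling genes of the follicle gave 1 call between high and low mice. Of 30 Wnt genes 0 were called in either direction, with a median difference of 0.05, of 21 BMP genes 0 with a median of 0.02, and of 18 Notch genes 0 with a median of -0.06. In the Hedgehog list Gli1, a target and effector of the pathway, was the 1 of 10 genes called, from 4.82, 5.03 and 5.31 in low mice to 5.02, 5.33 and 5.72 in high mice. Its groups overlapped in part (difference 0.33, SE 0.076, limma adjusted p = 0.0483), and the call was lost with sex and cohort as covariates (adjusted p = 0.762). Gli1 was above the array median in 11 high, 6 middle and 2 low arrays. It therefore entered the tests only through the high mice, and its call is not evidence for the pathway. Shh differed by 0.33 (adjusted p = 0.37) and the receptor Ptch1 by 0.31 (adjusted p = 0.41).

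Follicle stem cell and outer root sheath genes gave 0 calls among 15, with a median difference of 0.20. Lgr5, a stem cell receptor of the follicle, had lowest, median and highest mouse means of 4.85, 5.45 and 6.77 in low mice and 5.62, 6.24 and 7.35 in high mice. The groups overlapped, and the difference of 0.75 did not pass (SE 0.216, limma adjusted p = 0.207). Within mice it followed Krt71 at the edge of the threshold (slope 0.20, adjusted p = 0.0478), a call lost with no filter on low values (0.0535), with the Actb covariate described below (0.0933) and when mice with a doubtful sex label were left out (0.207). In the second papillomas of mice chosen by their first, Lgr5 differed by -0.01 (exact permutation p = 0.964).

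**Figure D3:**
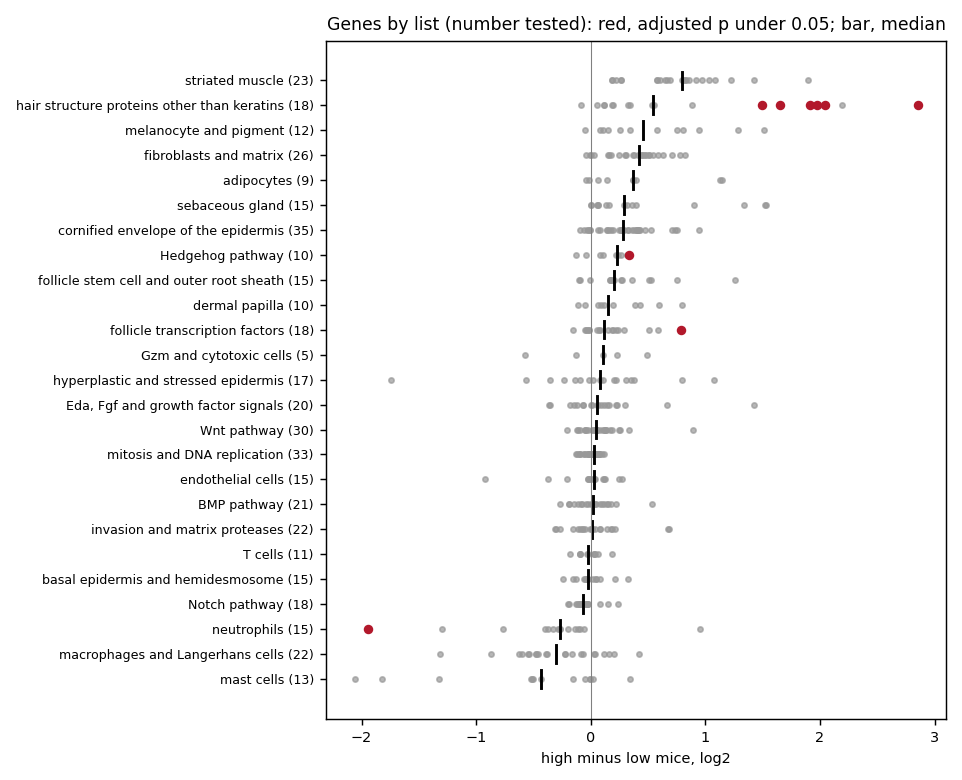
Log2 difference of high minus low mice for each gene of 25 lists, with the number of genes tested in brackets; red points passed the threshold and bars are medians of a list. Calls are concentrated in the list of hair structure proteins, while striated muscle genes, with 0 calls, have the highest median of 0.80.

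Chromosome 6 held 9 of the 35 called probesets (25.7%) and 5.12% of the tested ones. Apart from Gprc5d these were Cd9, a tetraspanin of the cell surface, Aebp2, a cofactor of Polycomb repression, H2aj, a histone variant, and Tm7sf3, all higher, and Clec2d, a ligand of a natural killer cell receptor, Ogg1, a DNA glycosylase that removes oxidized guanine, Fgfr1op2 and BC035044, all lower. By their order among 1126 coding genes of the chromosome they lie from 63.2% (Ogg1) to 97.9% (Tm7sf3) of the way along, with Gprc5d at 91.3%. Cd9 ran from 11.7 through 12.1 to 12.7 in low mice and from 12.2 through 12.8 to 13.1 in high mice, with 8 of 12 high mice above all low mice (difference 0.62, SE 0.112, limma adjusted p = 0.00383). Clec2d ran from 7.88 through 8.55 to 9.02 in low mice and from 7.21 through 7.71 to 8.34 in high mice, with 9 of 12 high mice below all low mice (difference -0.81, SE 0.154, limma adjusted p = 0.00758). BC035044 differed by -1.09 (SE 0.172, limma adjusted p = 0.000605).

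Of these 8, 0 were called by limma for a slope on Krt71 within mice, with slopes between -0.13 and 0.04 and a smallest adjusted p of 0.119. By contrast 16 of the 21 higher probesets on other chromosomes were called, as was Gprc5d. The difference between these 2 sets of slopes was not tested. The lower probesets on other chromosomes (Ngp, Cd177, Gys1, Pdlim7 and Socs1) were not called for a slope either. Nor were the higher Adgra3, Gli1, Lrig3, Rasl11b and Tmem19, so the lack of a called slope was not particular to chromosome 6. With sex and cohort as covariates 2 of the 8, BC035044 and Clec2d, stayed below the threshold. In 4 of them the call came from 1 probeset while the brightest probeset of the gene did not pass: -0.13 for Aebp2, -0.01 for Fgfr1op2, 0.10 for H2aj and 0.38 for Tm7sf3. The same was true of Lrig3, Tmem19 and Pdlim7 on other chromosomes, where the brightest probesets differed by 0.57, 0.26 and -0.24. Genotypes were not analysed here.

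**Figure D4:**
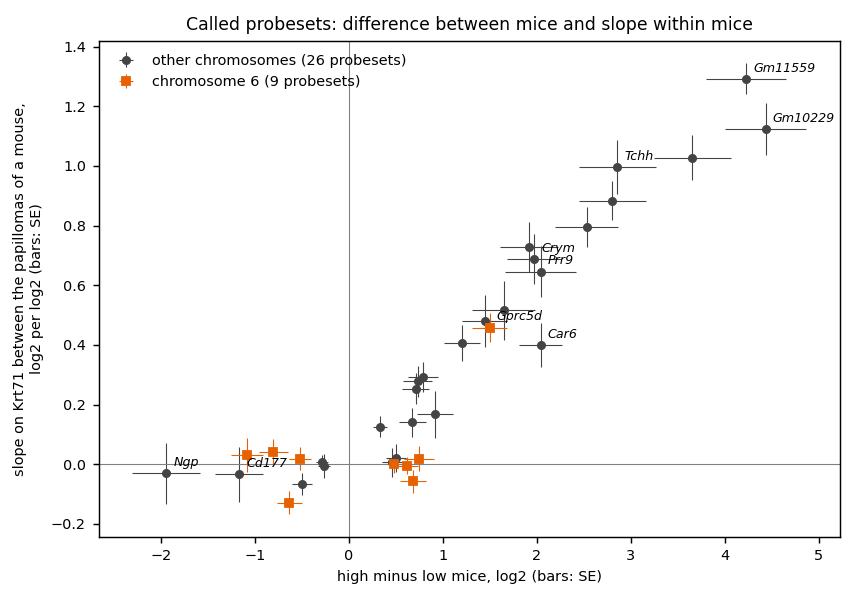
Log2 difference of high minus low mice (horizontal) against the slope on Krt71 between the papillomas of a mouse (vertical, log2 per log2) for the 35 called probesets, with standard errors; squares are on chromosome 6. Hair genes lie along a rising line up to a slope of 1.29 for Gm11559. The chromosome 6 probesets other than Gprc5d stay between -0.13 and 0.04, as do the lower probesets on other chromosomes.

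Genes lower in high mice included Ngp and Cd177, both of neutrophils. Ngp, a protein of neutrophil granules, had lowest, median and highest mouse means of 5.92, 7.47 and 9.50 in low mice and of 5.14, 5.45 and 8.00 in high mice. Of 12 high mice 10 lay below all low mice, and it was lower in high mice within all 5 cohorts (difference -1.95, SE 0.358, limma adjusted p = 0.00452, and 0.0683 with sex and cohort as covariates). Cd177, a surface protein of neutrophils, had medians of 5.42 in low and 4.02 in high mice (difference -1.17, SE 0.258, limma adjusted p = 0.0379). Cd177 was above the array median in only 16 arrays. Its highest mean in a high mouse, 4.78, lay below the array medians (5.19 to 5.29). The level in high mice was thus near background, and the size of the difference is uncertain. Whether Cd177 passed the filter on low values only through the low mice was not tested. Mmp8, neutrophil collagenase, differed by -1.30 without passing (adjusted p = 0.0789). Over the 15 neutrophil genes of the list, which does not hold Cd177, 14 were lower and 1, Ngp, passed, with a median difference of -0.27. Its S100a8 and S100a9, which keratinocytes also make, lay near the highest values of the arrays, where a difference could be hidden, and Ltf differed by 0.96 in the opposite direction. Within mice the median slope of the 15 genes on Krt71 was 0.07, and in held-out second papillomas their median difference was -0.38.

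Ngp was not called within mice (slope -0.03, SE 0.103, adjusted p = 0.962). In second papillomas of mice chosen by their first it averaged 5.97 ± 1.15 (SD, n = 10) where the first was high in Krt71 and 7.80 ± 0.86 (SD, n = 10) where it was low (exact permutation p = 0.00146, or 0.00879 adjusted over the 8 genes). Ngp was picked for this after its call on mouse means that include second papillomas, so the test is not independent of that call. Limma over all tested probesets gave Ngp an adjusted p of 0.9998 in the same contrast. Among the 13 mice between the groups its slope on Krt71 was -1.25 at an unadjusted p of 0.0495. Of the 9 lower probesets 2 had a slope of the same sign at an unadjusted p under 0.05 there, Ngp and Cd177, and of the 26 higher ones 9. Cd177 had a median of 4.40 over these 13 mice, below the array medians. Over all tested probesets the shares were 2.57% for a negative and 2.16% for a positive slope. The remaining lower genes were Socs1, an inhibitor of cytokine signaling (-0.50), Gys1, glycogen synthase of muscle and other tissues (-0.27), and Pdlim7 (-0.28). The count of 9 was sensitive to single mice: it was 3 without mouse 18, 4 without mouse 10, 16, 22 or 24, 5 without mouse 5, 19, 27, 30 or 35, 15 without mouse 6, and 16 without mouse 15 or 33.

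**Figure D5:**
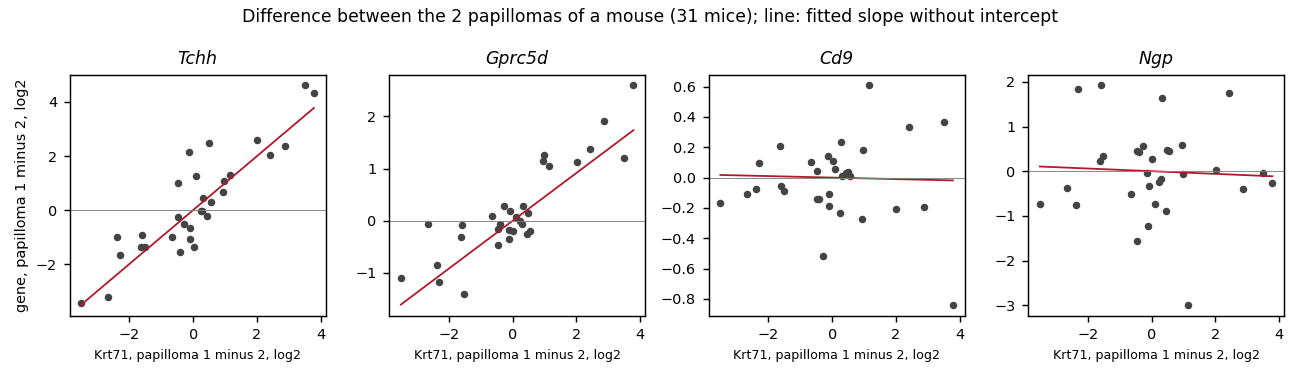
Difference between the papillomas of a mouse in Tchh, Gprc5d, Cd9 and Ngp (vertical, log2) against the difference in Krt71 (horizontal, log2) for 31 mice, with the fitted slope. Tchh and Gprc5d rise with Krt71, with slopes of 1.00 and 0.46, and Cd9 and Ngp lie around 0.

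Other immune lists held no further calls. Mast cell genes had a median difference of -0.44, 11 of 13 being lower, with Mcpt1, a mast cell protease, ranging from 4.13 to 9.96 in low mice and from 3.98 to 5.67 in high mice (difference -2.06, SE 0.625, limma adjusted p = 0.26). Within mice the median slope of the mast cell genes on Krt71 was 0.17, and in held-out second papillomas their median difference was -0.41. Of 22 genes of macrophages and Langerhans cells 16 were lower, with a median of -0.30. T cell genes (11, median -0.02) and cytotoxic cell genes (5, median 0.10) lay near the median of all genes.

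Other tissue lists leaned upward in high mice without a call, where 51.8% of all tested genes were higher. All 23 striated muscle genes were higher, with a median of 0.80, and the mean of the list ran from 4.93 through 6.25 to 8.89 in high mice and from 4.88 through 5.25 to 7.32 in low mice. The groups overlapped, and in 4 high and 2 low mice the mean was above 7. With this mean as a covariate 22 probesets were higher and 27 lower, and without those 6 mice 19 and 1, and the part of muscle RNA in the differences was not tested further. Fibroblast and matrix genes were higher in 24 of 26 (median 0.42), pigment genes in 11 of 12 (median 0.46) with Dct, an enzyme of melanin synthesis, at 1.51 (adjusted p = 0.258), and cornified envelope genes in 29 of 35 (median 0.28). In second papillomas of mice chosen by their first, only 2 of the 23 muscle genes (median -0.11) and 1 of 9 adipocyte genes were higher. There 21 of 26 fibroblast, 10 of 12 pigment and 17 of 35 cornified envelope genes were higher. The low mouse 32 had the lowest cornified mean of the 24 mice, 9.73. Basal epidermis (median -0.03), mitosis (0.03), endothelial (0.03) and invasion genes (0.01) gave 0 calls, as did growth factor signals (0.06), dermal papilla (0.15), adipocyte (0.37) and hyperplastic epidermis genes (0.08).

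Within mice 47 probesets of 43 genes rose with Krt71 and 65 probesets of 61 genes fell, Krt and Krtap left out. Of the 47, 17 were also called between mice: Tchh, Tchhl1, S100a3, Prr9, Crym, the 5 genes near Krtap genes, Gprc5d, Hoxc13, Car6, Fbp1, Ly6g6d and both probesets of Slc40a1. Lipid genes were among the rest. Scd1 and Scd3, desaturases that make monounsaturated fatty acids in sebaceous glands, had slopes of 0.41 (SE 0.0918, limma adjusted p = 0.0168) and 0.42 (SE 0.0957, adjusted p = 0.0201), and differed by 0.85 and 0.36 between mice without passing (for Scd1 the dimmer of its probesets; the brighter one had a slope of 0.41 and a difference of 0.90). Of the 15 sebaceous genes these 2 followed Krt71, where 39 of all 12522 genes (0.311%) did, and 0 were called between mice (median difference 0.29). In held-out second papillomas 4 of the 15 were higher, with a median difference of -0.14. The median slope within mice was 0.11 for the sebaceous genes and 0.19 for the 9 adipocyte genes, of which 0 were called. Cpm, a membrane carboxypeptidase, had a slope of 0.47 (adjusted p = 0.00435), Ces1d, a carboxylesterase, 0.47 (adjusted p = 0.0406), Tlcd4 0.44 (adjusted p = 0.0349), and Tnmd, a membrane protein of tendon, 0.44 (adjusted p = 0.0051). Over the 13 mice between the groups most of these slopes on Krt71 were negative. They were -0.15 for the dimmer Scd1 probeset, -0.54 for Scd3, -0.80 for Ces1d, -0.40 for Tlcd4 and -0.38 for Tnmd, while Cpm had 0.60.

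The 65 probesets that fell had small slopes, from -0.07 to -0.31. The steepest were Rai14, an actin-binding protein (-0.31), 2610005L07Rik (-0.31), Ccn1, a matricellular protein (-0.28), Mast4, a kinase (-0.26), Cpsf6, a factor of mRNA cleavage (-0.26), and Rc3h2, an RNA-binding ubiquitin ligase (-0.24). Over the 13 mice between the groups all of these had the opposite sign, with slopes from 0.06 (Ccn1) to 1.06 (2610005L07Rik). There 2610005L07Rik, Cpsf6 (0.71) and Rc3h2 (0.72) had an unadjusted limma p under 0.05. RNA quality differed between papillomas of a mouse, as measured by the log2 ratio of the 3′ to the 5′ Actb control probesets. With the difference of that ratio as a covariate 26 probesets rose and 19 fell, and without mice of doubtful sex label 24 rose and 46 fell. The slopes of the falling genes named here, of Scd1, Scd3, Cpm, Ces1d, Tlcd4 and Tnmd, and of Lgr5 were recomputed. With the covariate 8 lost their call and 5 kept it, and without mice of doubtful sex label 7 lost it and 6 kept it. Single mice with large differences in Krt71 also weighed on the counts: without mouse 1, 192 rose and 306 fell, and without mouse 9, 24 and 20. The number that rose was 86 without mouse 27 and 75 without mouse 32, and the number that fell was 35 without mouse 7, 32 without mouse 16, 16 without mouse 18, 43 without mouse 28, 29 without mouse 34 and 27 without mouse 37. Between mice the ratio had a median of 0.74 in the high and 0.64 in the low group, with a wider range in low mice, 0.18 to 1.43, than in high mice, 0.61 to 0.90.

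None of 7 labels passed a test between high and low mice. Of the 12 high mice 7 were male and of the 12 low mice 3 (Fisher's exact test, p = 0.214, adjusted p = 0.945 over 7 labels). Agouti coats numbered 6 and 4, and mice with a carcinoma array 10 and 11. Papillomas at 20 weeks averaged 5.83 ± 6.13 in high and 6.92 ± 5.93 in low mice (SD, n = 12 each, permutation p = 0.7). The first papilloma appeared after 12.7 ± 3.0 and 13.5 ± 5.9 weeks (SD, n = 11 each, permutation p = 0.81), and survival was 274.5 ± 51.6 days (n = 12) and 259 ± 50.01 days (n = 9, exact permutation p = 0.492). By susceptibility class the high group held 3 susceptible, 7 intermediate and 2 resistant mice, and the low group 4, 6 and 2. With 12 mice a group smaller differences in these labels could be missed, and the size that could be detected was not computed. With 18 mice a group 11 high and 4 low mice were male (Fisher's exact test, p = 0.0409, adjusted p = 0.286). With 9 a group papillomas at 20 weeks averaged 4.78 in high and 9 in low mice (exact permutation p = 0.0658, adjusted p = 0.46).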

How the data were processed

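The 68 arrays were deposited as log2 values per probeset, which the authors made by RMA (background correction, quantile normalization, summary of probes), as the submitters' processing notes state, with no version given in the sources used here. Papillomas of 1 mouse were averaged, since the mouse is the replicate. Of 45101 probesets, 34945 have 1 symbol in the array annotation, and the 21561 of these above their array's median in at least 11 arrays were tested (12596 genes, 89 probesets of Krt and Krtap genes). Comparisons were fitted with limma (version 3.58.1, under R 4.3.3), p-values were adjusted over all 21561 by the method of Benjamini and Hochberg, and the threshold was 0.05. Single genes and labels were compared with Fisher's exact test, exact permutation tests or 100000 permutations. The fits were tested on simulated data.

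The named genes were, with 1 probeset per gene (the brightest), the 12 largest differences in each direction among genes past the threshold (filled up by smallest p where fewer passed), the hair genes the study names, and up to 4 members of each of 27 gene lists. Other called genes and the largest slopes within mice were named after their values were seen. The ranking, the members and the lists were chosen with earlier results of these data known. Of 561 listed genes 514 were on the array. Labels show 8 arrays of 6 mice whose Xist (limit 8) or Eif2s3y (limit 6) goes against the labelled sex. Alternatives included other filters, group sizes, rankings, covariates, a SAM-type test (100 permutations) and leaving out each mouse. The number of arrays limits precision. Chromosomes and promoters came from RefSeq for GRCm38.p6. The arrays are not tied to a build here, so no other coordinates are given.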

Additional observations from a re-analysis of the deposited data

Results flagged for a closer look

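Among second papillomas of the 10 mice chosen as low by their first, Gprc5d was 5.83 in mouse 34 and Hoxc13 was 6.14 in mouse 32, each set apart from the other 9 by more than Dixon's 95% limit. Among second papillomas of the 10 mice chosen as high, mouse 14 stood apart in the same way with the lowest Msx2, 5.22, and the highest Ngp, 8.81. Chance sets apart about 1 in 20 such groups, and 16 groups were examined.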

How the results depend on the processing

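No paired analysis was possible because the replicate numbers in the labels name a papilloma within its own mouse and pair no mice across groups. The 26 higher and 9 lower probesets became 14 and 3 among probesets above the median in at least 34 arrays, 13 and 2 with sex and start cohort as covariates, 15 and 2 without the 3 high mice that gave a single papilloma, and 95 and 5 by a SAM-type statistic. The higher count was 16 with 18 mice a group. The lower count was 18 with arrays and mouse as a random block, 20 with arrays centred on the median of tested probesets, 27 with the striated muscle mean as covariate and 1 without mice in which that mean was above 7. Those on single-papilloma mice and muscle were chosen after seeing the data. Leaving out 1 mouse gave 19 to 40 higher and 3 to 16 lower. The 47 rising and 65 falling slopes within mice became 24 rising without mice of doubtful sex label, 26 rising and 19 falling with the Actb covariate, and 24 to 192 and 16 to 306 without 1 mouse. Held-out papillomas gave 0 to 0 higher and 0 to 1 lower without 1 mouse (1 without mouse 14), and 0 under the other settings. No label passed after adjustment with 9 or 18 mice a group. Among the 13 mice between the groups slopes turned sign for Fgfr1op2 (0.0146), Gli1 (-0.0894), Rasl11b (-0.216), Socs1 (0.108), Lgr5 (-0.206) and Msx2 (-0.0457), and the cause was not tested. Of 37 single differences between mice that were recomputed this way (the called probesets, Lgr5 and Msx2), no other changed sign under any of these settings.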
